A study of Homo sapiens with 4 samples.

Results

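The 40 genes described here are interferon-stimulated effector genes, the genes whose products carry out the antiviral state that interferons set up. They were taken as a list of symbols, and each symbol matched 1 of the 33538 genes listed in the count matrices. The rule that picks the members uses no measured value, but the list was drawn up with earlier results of these data known. All 40 held at least 4 UMIs (unique molecular identifiers, each standing for 1 captured transcript) in at least 1 library, and 35 reached a mean of 5 CPM (UMIs scaled to a common library total) over the 4 libraries. RSAD2, CMPK2, HERC5, RTP4 and ISG20 were below that mean and are kept in every count of members.

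The cells were HCEC 1CT, a human colonic epithelial progenitor line immortalised with TERT and CDK4, grown with EGF, hydrocortisone, insulin, transferrin, selenite and FBS. They received an shRNA against APC, a tumour suppressor that restrains Wnt signalling, or a scrambled shRNA, and all 4 groups were selected with puromycin. Cells were harvested 3 or 7 days after transduction, and 3′ single-cell RNA sequencing gave 1 library for each combination of shRNA and day. The virus is retroviral in the labels and lentiviral in the methods, and the 10x Genomics kit is v2 in the labels and V3 in the methods. Every group is a single library of 1 line, so no value below has a replicate check, no test was made and no p-value is given. All intervals are 95% intervals that cover counting error only.

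Interferons bind receptors on the cell surface, and the receptors' kinases JAK1 and TYK2 pass the signal on to transcription factors. These form a complex with IRF9 that binds interferon-stimulated response elements in promoters and switches on a large set of genes. Epithelial cells of the gut respond to interferon beta and to the lambda interferons, and the induced proteins block viral entry, RNA copying, protein synthesis and budding.

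After filtering, 1116 cells of shScr day 3, 788 of shAPC day 3, 2600 of shScr day 7 and 1478 of shAPC day 7 remained, with 28451455 to 39797418 UMIs per library. The median depth was 1330 UMIs per cell in shScr day 7 against 21030 to 49686 in the other 3 libraries. The kept libraries shared 1 to 19 cell barcodes per pair. APC itself stood at 16.1 and 19.1 CPM in shScr and at 5.52 and 6.61 CPM in shAPC at day 3 and day 7, which gives day 3 and day 7 ratios of 0.344 (0.291 to 0.405) and 0.346 (0.292 to 0.408). The epithelial markers EPCAM, CDH1 and CDX2 were at 0 to 0.0703 CPM, and KRT8 stood at 9.57 to 19.4 CPM. With KRT18, KRT19 and VIL1 these 7 epithelial markers summed to 17.1 to 32.3 CPM. The mesenchymal genes VIM and COL1A1 stood at 4010 to 5303 and 927 to 1519 CPM. The immune genes PTPRC, CD3E, MS4A1, NKG7 and TYROBP were at 0 to 0.0351 CPM, and 8 immune markers summed to 1.02 to 1.72 CPM. The shScr matrices were written by Cell Ranger 3.0.2 and the shAPC matrices by 3.0.0, per the file headers, so that the software version and the shRNA cannot be told apart.

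The promoters are shown first, because many of them hold the core of the response element. In RefSeq windows (GRCh38.p14) of 250 bases before to 50 bases after a gene's start, the core of the element, GAAANNGAAA, was searched on both strands. It was present for 24 of the 35 members with a window (68.6%) and for 4.38% of all 27305 genes with one. The site bound by STAT dimers, TTCNNNGAA, was present for 10 of the 35 (28.6%) and for 9.38% of all genes. MX2, USP18, PARP10, TRIM22 and LY6E had no window. The following stretches end before the start site and run 5′ to 3′ on the gene's strand, with core matches in capitals. A match on the other strand starts and ends with TTTC. Adjacent matches that share 4 bases run together, and some STAT site matches lie within or beside them. The first 4 belong to ISG15, IFI6, IFI27 and BST2, which on log2 of (CPM + 1) were at least 2-fold lower in shAPC than in shScr at day 7. They lie at chr1:1013359-1013424 (plus strand), chr1:27672251-27672373 (minus), chr14:94110603-94110675 (plus) and chr19:17405720-17405785 (minus).
ISG15: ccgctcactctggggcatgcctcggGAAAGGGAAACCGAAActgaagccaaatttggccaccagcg
IFI6: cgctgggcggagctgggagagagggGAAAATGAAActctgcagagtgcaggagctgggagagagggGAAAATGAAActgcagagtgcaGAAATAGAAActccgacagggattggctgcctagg
IFI27: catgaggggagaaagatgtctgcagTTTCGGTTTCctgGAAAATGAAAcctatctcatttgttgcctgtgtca
BST2: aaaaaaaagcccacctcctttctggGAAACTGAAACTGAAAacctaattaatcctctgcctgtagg

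The next 4 belong to the members with the largest shares of their UMIs in the 16 shAPC day 3 cells that held an IFNB1 (interferon beta) transcript. They lie at chr15:88638922-88638981 (plus strand), chr2:6877607-6877666 (plus), chr4:88456969-88457079 (plus) and chr3:187368318-187368384 (plus).
ISG20: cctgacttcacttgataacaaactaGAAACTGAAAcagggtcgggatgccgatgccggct
RSAD2: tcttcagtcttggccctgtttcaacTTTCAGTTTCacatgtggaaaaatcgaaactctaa
HERC5: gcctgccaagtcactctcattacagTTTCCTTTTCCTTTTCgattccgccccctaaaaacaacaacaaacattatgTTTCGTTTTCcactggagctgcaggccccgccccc
RTP4: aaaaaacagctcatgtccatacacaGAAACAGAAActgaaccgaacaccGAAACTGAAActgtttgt

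The last pair holds the core of TRIM14, the member with the smallest day 3 ratio, and a core shared by the promoter windows of PARP9 and DTX3L, whose ratios differed. They lie at chr9:98119223-98119273 (minus strand) and chr3:122564307-122564366 (minus). PARP9 and DTX3L overlap and are read in opposite directions, and the same match lies before the start of PARP9 and spans the start of DTX3L.
TRIM14: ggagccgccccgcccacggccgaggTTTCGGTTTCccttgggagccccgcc
PARP9: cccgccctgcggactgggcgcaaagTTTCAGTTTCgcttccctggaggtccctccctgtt

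**Figure D1:**
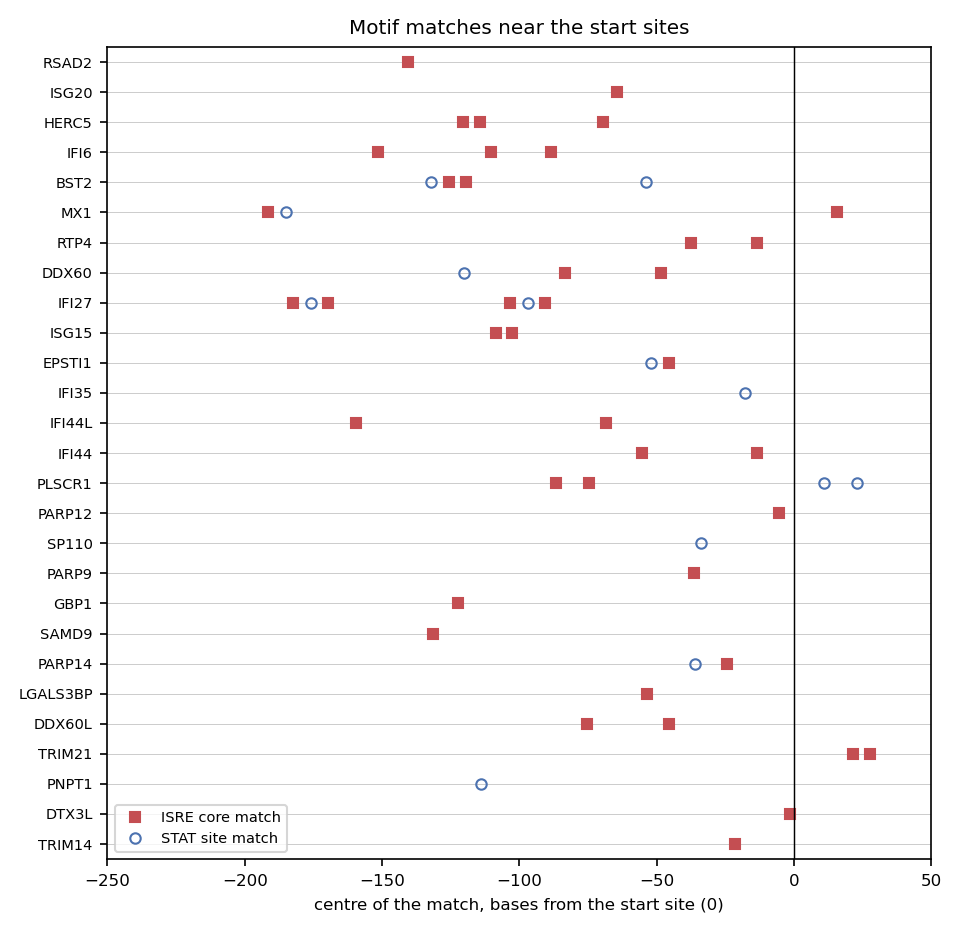
Position of each motif match in bases from the start site (horizontal axis; 0 is the start) for the 27 members with a match of either motif, ordered by their day 3 ratio. Filled squares are response element cores and open circles are STAT sites. Where a gene has more than 1 window, a match can appear once per start. Most cores lie within 200 bases before the start.

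The members with a core reached higher ratios, but the groups overlapped. The median log2 ratio of shAPC over shScr at day 3 was 1.65 for the 24 members with a core (0.66 to 3.27) and 1.23 for the 11 without (0.76 to 1.93), so that the range of the first group covered that of the second. Of the 24 with a core, 10 lay above the highest member without one, and no test was made of the difference. Members with no window, such as MX2, are outside this count. At day 7 the medians were −0.39 and −0.41. TRIM14, which holds a core, had the lowest day 3 ratio of all 40 members, and XAF1, HERC6, IFI35 and CMPK2, which hold none in their windows, lay at 1.80 to 1.93.

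Summed over the list, the 40 genes took 1376 CPM in shScr day 3 (1365 to 1388), 5147 CPM in shAPC day 3 (5123 to 5171), 1473 CPM in shScr day 7 (1460 to 1487) and 937 CPM in shAPC day 7 (926 to 949). The shAPC day 3 library stood far above the other 3, and shAPC day 7 was the lowest. Because 3′ counting gives 1 UMI per transcript end, CPM can be set side by side between genes without scaling by length. ISG15, IFI27 and IFI6 together made up 38.5% of the summed UMIs in shScr day 3, 56.5% in shAPC day 3, 48.6% in shScr day 7 and 29.3% in shAPC day 7. ISG15 was the highest member in 3 libraries, and LY6E was the highest in shAPC day 7.

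For counts over the list, ratios were taken as log2 of (CPM + 1), and a gene was called when it differed at least 2-fold. At day 3 all 40 members had a higher CPM in shAPC, with a median log2 ratio of 1.43 (0.66 to 3.27) beside 0.30 over all 9173 genes of at least 5 CPM on average, of which 81.5% were also above 0. At least 2-fold higher were 33 of the 40, against 3.32% of all genes, and none was at least 2-fold lower, against 0.305%. At day 7 the median was −0.35 beside −0.04 over all genes, with 32 members lower and 8 higher, where 55.6% of all genes were lower. None of the 40 was at least 2-fold higher there, against 0.741% of all genes, and 4 were at least 2-fold lower (ISG15, IFI6, IFI27 and BST2), against 1.23%. Scaling by TMM factors, which lowers every day 3 log2 ratio by 0.38, left 21 members at least 2-fold higher at day 3. Taken as a mean over cells of CPM, which gives the shallow cells the same weight as the deep ones, 11 members were at least 2-fold apart at day 7, in either direction. There 7 of the 40 day 7 ratios changed sign. The share of all genes was not recounted under these 2 settings.

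**Figure D2:**
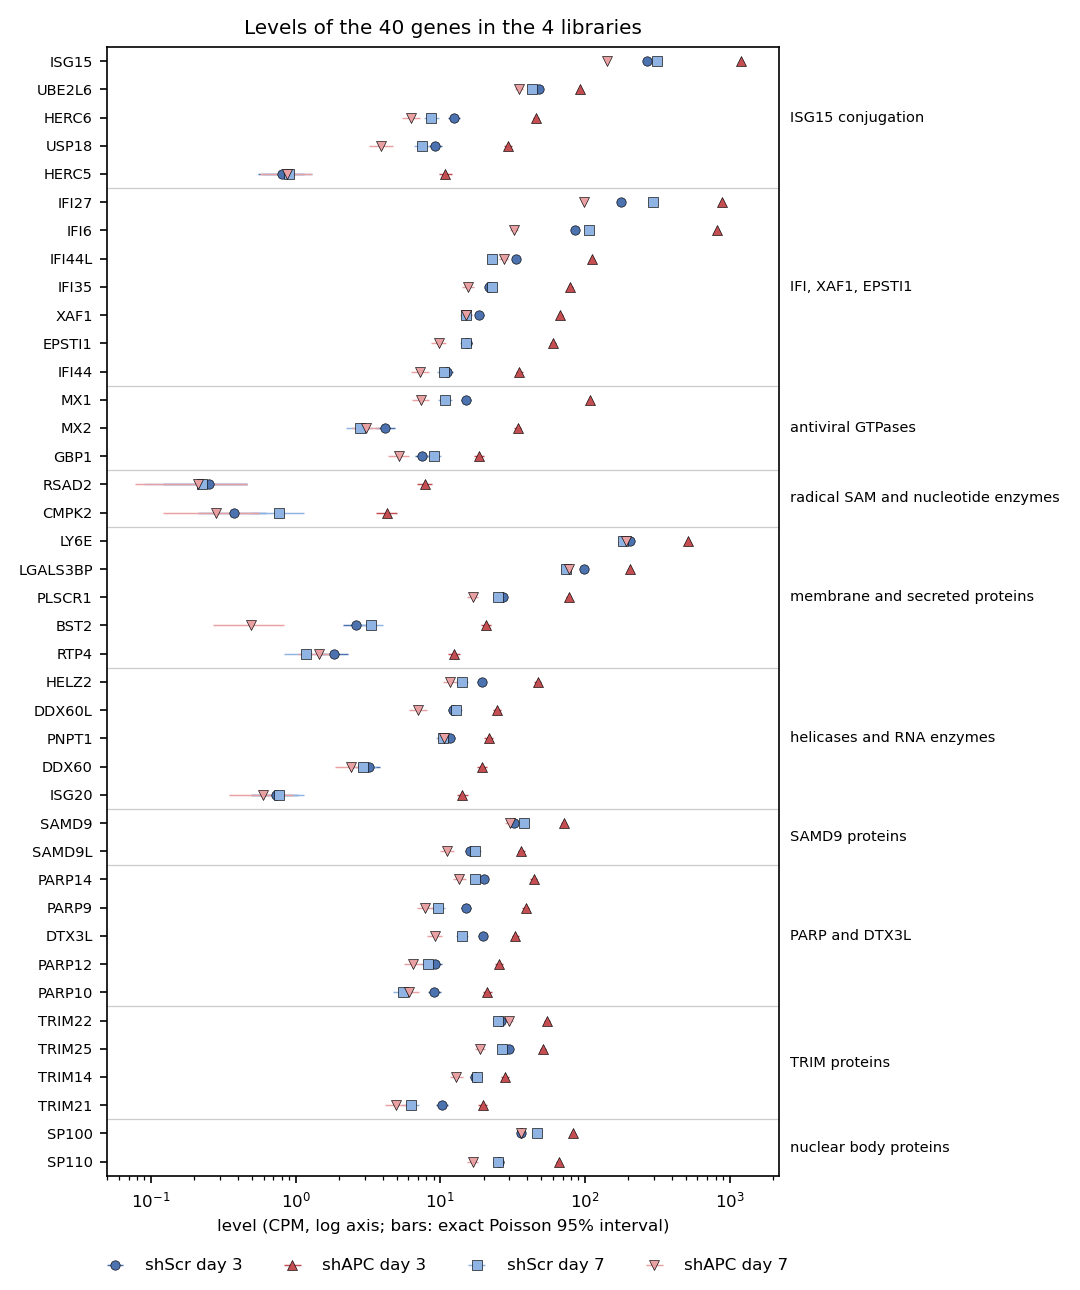
Level of each of the 40 genes (CPM, log axis) in the 4 libraries, grouped by role, with exact Poisson 95% intervals that cover counting error only. The triangle of shAPC day 3 lies to the right of the other 3 libraries for every gene, and for ISG15, IFI27, IFI6 and BST2 shAPC day 7 lies clearly to the left.

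The ISG15 conjugation genes were led by ISG15, a ubiquitin-like protein that is joined to other proteins and is also secreted. ISG15 stood at 268 CPM in shScr day 3, 1199 in shAPC day 3, 313 in shScr day 7 and 143 in shAPC day 7. The day 3 ratio of shAPC to shScr was 4.47 (4.37 to 4.56), and the day 7 ratio was 0.458 (0.441 to 0.475). It was thus the highest of the 4 libraries at day 3 and the lowest at day 7 in cells with the same shRNA. UBE2L6, the enzyme that carries ISG15 to its ligases, was at 48.0, 92.7, 42.8 and 35.2 CPM in the same order of libraries and had a smaller day 3 ratio of 1.93 (1.82 to 2.04). HERC5, the main ISG15 ligase of human cells, was at 0.804, 10.8, 0.897 and 0.879 CPM, a ratio of 13.5 (9.37 to 20.0) at day 3. The intervals of UBE2L6, ISG15 and HERC5 at day 3 did not overlap, but they count UMIs as independent molecules and leave out differences between cells. Of the 378 HERC5 UMIs in shAPC day 3, the highest cell held 85. The 16 cells with an IFNB1 UMI held 46.3% of them, and HERC5 stood at 6.07 CPM in the other cells. USP18, which takes ISG15 off its targets and holds down receptor signalling, was 3.18 times higher at day 3 (2.82 to 3.59) and stood at 0.518 of shScr at day 7 (0.410 to 0.653). Its near-identical copy USP41 had 0 UMIs in all 4 libraries, and how reads shared by the 2 genes were counted is not given in the sources used here.

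The small hydrophobic proteins IFI6 and IFI27, which locate to the endoplasmic reticulum and mitochondria, were among the 4 members of highest mean level. IFI6 stood at 84.9, 825, 106 and 32.3 CPM, a ratio of 9.71 (9.37 to 10.1) at day 3 and 0.304 (0.282 to 0.327) at day 7. IFI27 stood at 177, 884, 297 and 98.8 CPM, with ratios of 5.00 (4.87 to 5.13) and 0.332 (0.318 to 0.346). Between day 3 and day 7 IFI6 was 25.6-fold lower in shAPC (23.9 to 27.3), while in shScr it was 1.25 times higher at day 7 (1.19 to 1.31). Among the others of this group XAF1, which antagonises the apoptosis inhibitor XIAP, was at 18.7, 67.5, 15.2 and 15.0 CPM, so that it was up at day 3 and level with shScr at day 7 (0.991, 0.868 to 1.13). IFI44L was at 33.3, 113, 22.8 and 27.4 CPM and its day 7 ratio was 1.20 (1.08 to 1.33), the highest of the members with an interval above 1 there. All 7 genes of the group (with IFI35, IFI44 and EPSTI1) were at least 2-fold higher at day 3, at log2 ratios of 1.57 to 3.27.

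MX1 and MX2, dynamin-like GTPases that block influenza virus and HIV-1 respectively, lie 10627 bases apart on chromosome 21. MX1 was at 15.0, 109, 10.8 and 7.35 CPM and MX2 at 4.15, 34.2, 2.79 and 3.06 CPM. Their day 3 ratios, 7.26 (6.66 to 7.93) and 8.25 (7.00 to 9.77), had overlapping intervals. At day 7 the ratios were 0.679 (0.568 to 0.809) for MX1 and 1.10 (0.806 to 1.495) for MX2, and these intervals overlapped as well, at their edges. GBP1, a guanylate-binding protein that coats pathogens and is best known as a target of interferon gamma, was less abundant, at 7.49, 18.5, 9.03 and 5.17 CPM.

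DDX60 and DDX60L, helicase genes 37852 bases apart on chromosome 4, had day 3 ratios of 5.995 (4.96 to 7.29) and 2.01 (1.79 to 2.25), and only DDX60L had a day 7 interval below 1, at 0.547 (0.460 to 0.650) against 0.823 (0.594 to 1.14). HERC5 and HERC6, 14022 bases apart, had day 3 ratios of 13.5 and 3.72 (3.36 to 4.12), although HERC6 was the more abundant of the pair in every library. The paired antiviral genes SAMD9 and SAMD9L, 12033 bases apart on chromosome 7, had nearly the same day 3 ratios of 2.22 (2.07 to 2.37) and 2.28 (2.07 to 2.52). RSAD2, or viperin, which makes a chain-terminating nucleotide, overlaps CMPK2, a mitochondrial nucleotide kinase, on the opposite strand. RSAD2 was at 0.251, 7.84, 0.224 and 0.211 CPM and CMPK2 at 0.377, 4.26, 0.768 and 0.281 CPM, the lowest means of the list over the 4 libraries. Their day 3 ratios were 31.2 (16.7 to 65.8) and 11.3 (6.64 to 20.7). For RSAD2 the highest shAPC day 3 cell held 82 of 274 UMIs, and outside the cells with an IFNB1 UMI it stood at 4.61 CPM. Whether counting used the strand is not given in the sources used here, so reads of overlapping genes on opposite strands cannot be told apart for certain. IFI6, TRIM22 and TRIM25 overlap another gene on their own strand in GENCODE 44.

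Among the RNA enzymes ISG20, an exonuclease that degrades viral RNA, was at 0.729, 14.2, 0.768 and 0.598 CPM and its ratio at day 3 was 19.5 (13.4 to 29.5). That ratio rests on few cells: the highest shAPC day 3 cell held 161 of 497 UMIs. Outside the cells with an IFNB1 UMI, ISG20 stood at 7.81 CPM in that library. PNPT1, the polynucleotide phosphorylase of mitochondria, was at 11.6, 21.6, 10.4 and 10.7 CPM and had a ratio of 1.85 (1.65 to 2.09), so that the RNA enzymes held members near both ends of the list. HELZ2, a helicase and nuclear coactivator, was at 19.4, 47.05, 14.2 and 11.7 CPM.

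The membrane and secreted proteins included members that were up at day 3 without being lower at day 7. LY6E, a lipid-anchored surface protein that restricts coronaviruses, was at 204, 517, 184 and 193 CPM, with ratios of 2.53 (2.47 to 2.60) at day 3 and 1.05 (1.01 to 1.09) at day 7. LGALS3BP, a secreted glycoprotein that binds galectins, was at 98.6, 205, 74.2 and 77.6 CPM, and its day 7 ratio of 1.05 (0.986 to 1.11) could not be set apart from 1. BST2, or tetherin, which holds budding virus at the cell surface, went the other way, at 2.61, 20.7, 3.33 and 0.492 CPM. Its day 7 CPM ratio of 0.148 (0.0781 to 0.259) was the lowest of all members and rests on 14 UMIs in shAPC day 7. RTP4, a chaperone of membrane receptors, was at 1.83, 12.5, 1.18 and 1.44 CPM, a ratio of 6.82 (5.31 to 8.86) at day 3. PLSCR1, a phospholipid scramblase, was at 27.0, 77.4, 25.2 and 16.7 CPM.

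At day 3 the 7 members short of 2-fold were TRIM14, DTX3L, TRIM25, PNPT1, TRIM21, UBE2L6 and DDX60L. TRIM14, an adaptor of RNA sensing at mitochondria, had a ratio of 1.62 (1.47 to 1.79) and levels of 17.3, 28.0, 17.8 and 12.9 CPM. DTX3L, a ligase that works in a complex with PARP9, had a ratio of 1.67 (1.53 to 1.83), against 2.59 (2.35 to 2.86) for PARP9, although the core match printed above lies in the windows of both. TRIM25, which ubiquitinates the RNA sensor RIG-I, had a ratio of 1.71 (1.59 to 1.84), and TRIM21, a cytosolic antibody receptor, had 1.92 (1.69 to 2.17). DDX60L, at 2.01 as plain CPM, falls short of the line once 1 CPM is added, and TRIM22 at 2.09 (1.94 to 2.25) and LGALS3BP at 2.07 (1.99 to 2.16) are just past it. PARP10, PARP12 and PARP14, which attach single ADP-ribose units to proteins, lay at log2 ratios of 1.11 to 1.37. The nuclear body proteins SP100 and SP110 were at least 2-fold higher too, at 2.27 (2.13 to 2.42) and 2.59 (2.41 to 2.79).

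**Figure D3:**
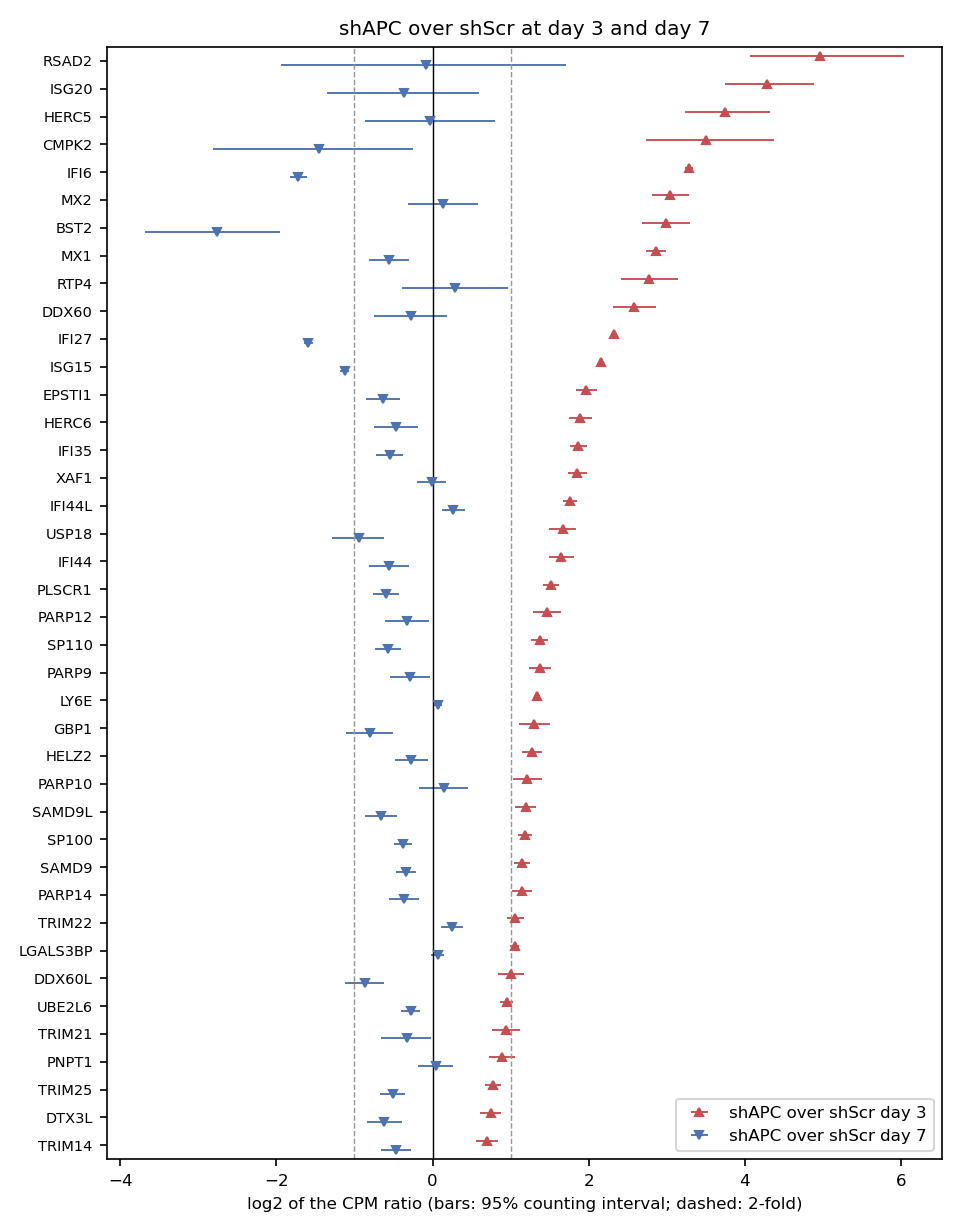
Ratio of shAPC to shScr for each member (log2 of the CPM ratio without a pseudocount) at day 3 (triangles up) and day 7 (triangles down), with counting intervals and dashed lines at 2-fold. All 40 day 3 intervals lie above 0, as do 69% over all genes, while 27 of the day 7 intervals lie below 0 and 3 lie above it, against 36.2% and 24.6% of all genes.

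The size of the day 3 ratio did not carry over to day 7. Over the 40 members Spearman's rho between both log2 ratios was −0.09, a description across genes whose ratios at each day come from the same pair of libraries. IFI6, BST2, IFI27, MX1 and ISG15 were high at day 3 and low at day 7. RSAD2, ISG20, HERC5, MX2, RTP4 and DDX60 were high at day 3 with day 7 intervals that held 1. These last genes had only 6 (RSAD2) to 92 (DDX60) UMIs in a day 7 library, so their intervals were wide. The genes named before them had 14 (BST2) to 9770 (ISG15). The day 7 interval of 10 members held 1, and IFI44L, TRIM22 and LY6E had intervals above 1. In 27 members the interval lay above 1 at day 3 and below 1 at day 7, against 19.8% of all genes.

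In the scrambled control the list moved less with time than in shAPC. The median log2 ratio of day 7 over day 3 was −0.10 beside 0.04 over all genes. None of the 40 was at least 2-fold higher or lower, which is near the 0.327% and 0.567% of all genes. On that scale IFI27 had the highest ratio, 1.68 (1.63 to 1.74) as plain CPM, and TRIM21 the lowest, 0.609 (0.511 to 0.724). The counting interval lay above 1 for 7 members and below 1 for 17, and it held 1 for 16. The shares of all genes were not counted for these intervals. Taken as a mean over cells of CPM, 12 of the 40 ratios changed sign. In shAPC every member was lower at day 7, as were 81.9% of all genes, with a median of −2.02 beside −0.31 over all genes. At least 2-fold lower were 38 of the 40, against 4.55% of all genes, and none was at least 2-fold higher, against 0.0981%. TRIM22 and PNPT1 were the exceptions on this scale, at 0.544 (0.501 to 0.590) and 0.495 (0.432 to 0.566) of their day 3 CPM. These comparisons over time use the same 4 libraries as those between shRNAs.

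Shares of cells were compared after each cell was thinned to 2000 UMIs, which left out 115 to 1402 shallower cells per library and kept 899, 673, 1198 and 1087 cells. The median member was found in 3.00% of the cells of shScr day 3, 7.36% of shAPC day 3, 2.84% of shScr day 7 and 2.02% of shAPC day 7. ISG15 was found in 38.7% (35.5 to 42.0), 69.8%, 40.2% and 23.0% of the cells, and IFI6 in 15.6%, 68.6%, 17.9% and 5.06%. MX1 was found in 2.11%, 15.6%, 2.00% and 1.20%. For these 3 genes the order of the libraries was that of their CPM, and the 2 shScr libraries lay close together. All cells are of 1 line, so there is no cell type that should lack these genes and could serve as background. Without thinning, the median shares were 33.1%, 59.5%, 11.8% and 15.0%.

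At 10000 UMIs per cell the list gave a median of 11 UMIs in the 765 cells of shScr day 3 (5th to 95th percentile 4 to 32), 40 in the 576 of shAPC day 3 (18 to 111), 11 in the 919 of shScr day 7 (3 to 37) and 8 in the 927 of shAPC day 7 (2 to 20). Of the shAPC day 3 cells 574 of 576 (99.7%, 98.8 to 99.96) lay above the shScr day 3 median and 377 (65.5%, 61.4 to 69.3) above its 95th percentile. No background level of free RNA was measured, so its part in the UMIs of single cells was not tested. Of the shAPC day 7 cells 21.0% (18.5 to 23.8) lay above the shScr day 7 median and 4 of 927 above the shAPC day 3 median. The median number of members found per cell was 7, 14, 7 and 5 in the order of the libraries.

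**Figure D4:**
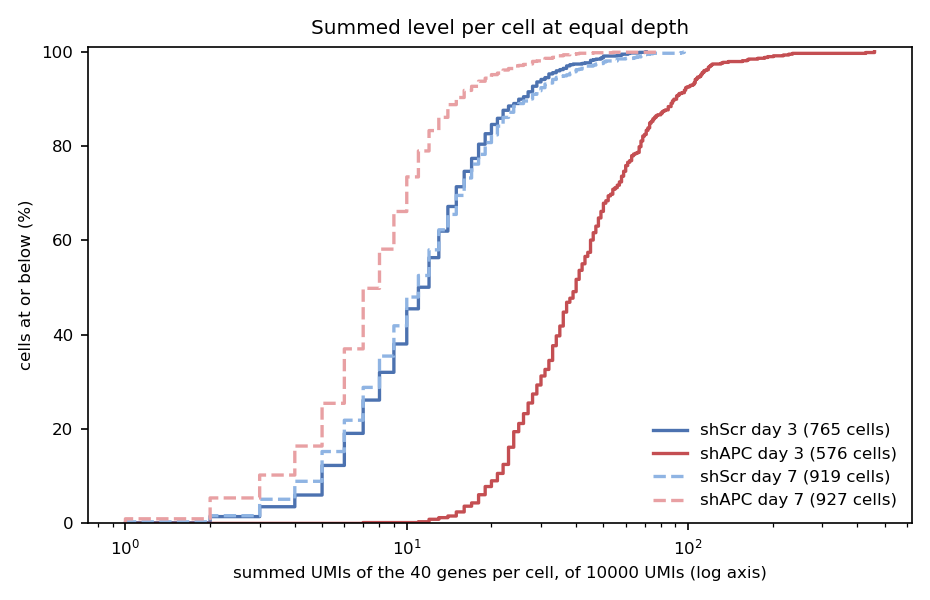
Share of cells (%, vertical axis) whose summed UMIs of the 40 genes, out of 10000 UMIs per cell, are at or below the value on the log horizontal axis. The shAPC day 3 curve lies wholly to the right of the others, with a median of 40 against 11, 11 and 8, and 1 cell of shAPC day 7 with 0 UMIs is drawn at 1.

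The list's share was higher in cells under 10000 UMIs than in deeper ones. In cells of at least 10000 UMIs it was 1363, 5116, 1399 and 915 CPM in the order of the libraries. In cells of 500 to under 2000 UMIs it was 2244, 6673, 2627 and 1850 CPM. In shAPC day 3 it was highest between these, at 7073 CPM (6831 to 7322) in cells of 2000 to under 10000 UMIs. The day 7 order held in cells of at least 10000 UMIs, at 1399 CPM (1385 to 1413) in shScr and 915 (904 to 927) in shAPC. Of the 2600 shScr day 7 cells 1402 were under 2000 UMIs. Within shAPC day 3 the summed UMIs of a thinned cell fell with its percentage of mitochondrial UMIs (Spearman's rho −0.43 over 576 cells), against −0.03, −0.17 and −0.02 in shScr day 3, shScr day 7 and shAPC day 7. The summed UMIs of 10 cycling genes had a rho of −0.06 to 0.03 with the list over cells, while between libraries the cycling genes had a median log2 ratio of 0.39 at day 3 and −0.49 at day 7. These are descriptions over cells of 1 library, and the part of depth, mitochondrial content and cycling in the levels was not tested.

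ISG15, IFI6 and IFI27 covaried most from cell to cell. Over thinned cells the pair ISG15 and IFI6 had the highest Spearman's rho of all pairs of members found in at least 20% of cells, in each library, at 0.41, 0.56, 0.38 and 0.23. The pairs of these genes with IFI27 came next in all 4 libraries, at 0.29 to 0.31 in shScr day 3, 0.39 to 0.43 in shAPC day 3, 0.31 to 0.34 in shScr day 7 and 0.16 to 0.17 in shAPC day 7. The bulk of the pairs covaried weakly. Over the 9 members found in at least 20% of cells in every library, the median of the 36 pairs was 0.05, 0.12, 0.07 and 0.05. In the order of the libraries, 13, 29, 11 and 9 members were found in at least 20% of cells, so the sets of pairs differ. Of these pairs 65 of 78, 382 of 406, 51 of 55 and 29 of 36 were above 0. A rho of 0.2 was reached by 3, 36, 3 and 1 of them. Pairs of other genes were not counted, so these numbers have no background beside them.

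Against the sum of the other 39 members, IFI6 (0.66), ISG15 (0.63), MX1 (0.44), IFI27 (0.42) and IFI35 (0.38) covaried most over the shAPC day 3 cells. ISG15, IFI27 and IFI6 made up 56.5% of the list's UMIs in that library, so such a sum rests largely on them. TRIM14 (0.02) and TRIM22 (0.04) covaried least there, although TRIM22 was found in 40.5% of the cells. In shAPC day 7 ISG15 was at 0.28 and IFI6 at 0.24, and no member passed those. All cells had the same depth in these correlations, but the counts are sparse, and low counts alone hold a correlation near 0.

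A small number of shAPC day 3 cells held the transcript of interferon beta itself. IFNB1 had 0 UMIs in shScr day 3, 829 in shAPC day 3 (23.7 CPM, 22.1 to 25.4), 11 in shScr day 7 and 1 in shAPC day 7. Against a floor of 3 UMIs in shScr day 3, it was at least 315-fold higher in shAPC at day 3. Its 829 UMIs came from 16 of 788 cells, and 10 cells held 99.3% of them. The 16 cells together held 4.31% of the library's UMIs, which is the share a member would show if it had the same level in them as in all cells.

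The share of a member's UMIs that lay in these 16 cells varied widely. ISG20 had 47.5% of its UMIs there, HERC5 46.3%, RSAD2 43.8% and RTP4 24.9%. Pooled over these cells ISG20 stood at 157 CPM against 7.81 CPM in the other 772, and HERC5 at 116 against 6.07 CPM. RSAD2 stood at 79.7 against 4.61 CPM and RTP4 at 72.4 against 9.81 CPM. Single cells weighed heavily: the highest cell of the library held 161 of 497 UMIs for ISG20 and 85 of 378 for HERC5. For RSAD2 the highest cell held 82 of 274 UMIs, and for RTP4 59 of 437. These 4, of 5 members under 5 CPM on average, were thus concentrated where IFNB1 was found, and the fifth, CMPK2, had 11.4% there. In all, 36 of the 40 members had a larger share there than the 4.31% of all UMIs. How many of all genes did so was not counted, so this number has no background beside it. DDX60 had 13.99%, USP18 11.2%, GBP1 10.9%, EPSTI1 10.7% and IFI44 9.36%, and IFI6 had 6.71% and LY6E 4.68%. The 4 below that share were LGALS3BP at 4.25%, TRIM14 at 3.89%, IFI44L at 3.78% and BST2 at 3.46%. ISG15 stood close to DDX60, with 13.9% of its UMIs and 3862 CPM in these cells against 1079 CPM in the others.

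**Figure D5:**
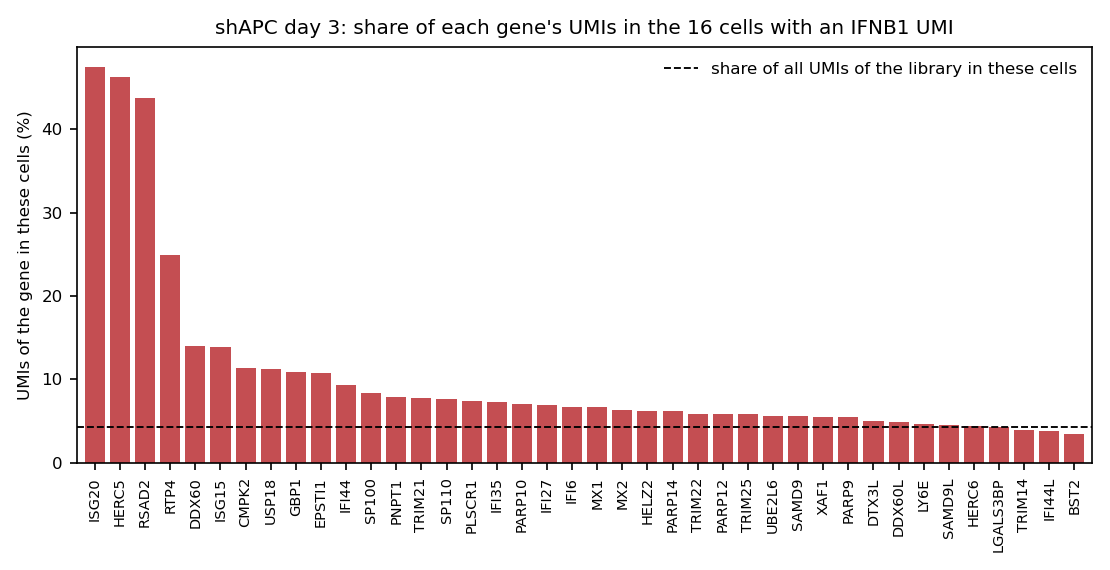
Share of each member's UMIs (%) that lay in the 16 shAPC day 3 cells with an IFNB1 UMI. The dashed line marks the 4.31% of all UMIs of the library that these cells held; ISG20, HERC5, RSAD2 and RTP4 stand at 24.9% to 47.5%, and LGALS3BP, TRIM14, IFI44L and BST2 lie below the line.

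The day 3 rise of the list did not rest on those cells. With cells holding an IFNB1 UMI left out of every library, the median log2 ratio at day 3 was 1.39 against 1.43 and the number of members at least 2-fold higher was unchanged at 33. In the cells without an IFNB1 UMI the summed UMIs per thinned cell had a median of 40 (quartiles 27 to 59). In the 16 with one the median was 71 (quartiles 32.25 to 94.25), so that the 2 groups of cells overlapped. The levels of the 4 concentrated members outside these cells remained above those of shScr day 3, at 4.61 against 0.251 CPM for RSAD2 and 7.81 against 0.729 CPM for ISG20. A cell without an IFNB1 UMI can still have held the transcript, since not every transcript is captured.

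Of 28 genes for interferons, receptors, kinases, factors and inhibitors, 21 held at least 4 UMIs in a library. At day 3, 3 of the 28 were at least 2-fold higher (IFNB1, IRF1 and IRF7), against 3.32% of all genes. None was at least 2-fold lower, against 0.305%. None of the 28 passed 2-fold in either direction at day 7, which is near the 0.741% of all genes higher and 1.23% lower. IRF1, a factor that acts early in the response, was at 9.85, 56.4, 16.04 and 9.81 CPM, a ratio of 5.72 (5.13 to 6.39) at day 3 and 0.611 (0.526 to 0.709) at day 7. IRF7, which amplifies interferon production, was at 11.1, 43.5, 8.93 and 6.15 CPM, with a day 3 ratio of 3.91 (3.51 to 4.35). STAT2 and IRF9, which act in the complex that binds the response element, had smaller ratios of 1.61 (1.51 to 1.73) and 1.73 (1.42 to 2.12). The 6 receptors had a median log2 ratio of 0.02 and the 3 kinases of 0.19, near or below the 0.30 of all genes, and the 5 inhibitors of 0.32.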

How the data were processed

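The authors aligned the reads to GRCh38 with Cell Ranger, whose aligner is STAR, and deposited raw UMI counts per gene and cell barcode, 1 matrix for each of the 4 libraries (versions 3.0.2 and 3.0.0 per the file headers). The annotation release, cell calling settings and use of the strand are not given in the sources used here. The study's TMM scaling with ComBat and its imputation were not applied. Of the columns used, 0 belonged to other samples.

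A barcode was kept when it had 200 genes or more, 500 UMIs or more and a share under 5% for the 13 mitochondrial genes. UMIs were summed per library and divided by the library's kept UMIs. CPM have exact Poisson 95% intervals, shares exact Clopper-Pearson intervals, and ratios exact conditional binomial intervals. UMIs are counted as independent molecules, and bounds against a count of 0 used a floor of 3 UMIs. Doublets were not called or removed, and leaving out the 5% of cells with the most UMIs was an alternative. Cells were thinned without replacement to 2000 UMIs for shares and 10000 for correlations, and shallower cells were left out. Promoter windows came from RefSeq, gene positions from GENCODE 44, and 5 members had no window.

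The 40 members, the role groups, the gene lists and the motifs were chosen with earlier results of these data known. Named genes were the 12 members of highest mean CPM, the 5 highest and 5 lowest ratios at each day among members with at least 20 UMIs, and others as their role group was taken up. Groups came from the sample titles. The values of 1 pathway gene are not reported here. Alternatives were TMM (edgeR 4.0.16) and DESeq2 1.42.0 size factors, other totals, cell filters and pseudocounts. Code was tested on simulated data and ran on Python 3.11.15, NumPy 2.4.6, SciPy 1.17.1, pandas 2.3.3, matplotlib 3.10.9 and R 4.3.3.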

Additional observations from a re-analysis of the deposited data

Results flagged for a closer look

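In 27 of the 40 members the interval of the ratio of shAPC to shScr lay above 1 at day 3 and below 1 at day 7, against 19.8% of all 9173 genes of at least 5 CPM on average. Over all 40 members the median log2 ratio (CPM + 1) was higher at day 3 by 1.78. With 1 library per group the difference between the days was not tested, and it cannot be told apart from a difference between single libraries. Among these 27 alone, the day 3 minus day 7 difference on the log2 scale was IFI6 4.95, BST2 4.12, IFI27 3.90, MX1 3.28 and ISG15 3.28. It was EPSTI1 2.49, CMPK2 2.40, USP18 2.37, IFI35 2.34, HERC6 2.22, IFI44 2.06 and PLSCR1 2.05. For the rest of the 27 it was GBP1 1.90, SP110 1.88, SAMD9L 1.76, DDX60L 1.73, PARP12 1.66, PARP9 1.58, SP100 1.53 and HELZ2 1.48, and then SAMD9 1.45, PARP14 1.44, DTX3L 1.28, TRIM25 1.25, UBE2L6 1.21, TRIM21 1.16 and TRIM14 1.10.

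The barcodes left out by the filter carried the day 3 difference as well. The members summed to 3685 CPM (3635 to 3736) in the 259 left-out barcodes of shAPC day 3 and to 1522 CPM (1487 to 1557) in the 355 of shScr day 3. Both libraries held the same direction in kept and left-out barcodes, and the level of left-out shAPC barcodes was below the 5147 CPM of the kept cells.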

How the results depend on the processing

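No paired analysis was possible because each group held 1 library, and for the same reason no replicate could be left out. Under 12 alternatives each, no day 3 ratio of a member changed sign and no member at least 2-fold apart turned round in any comparison. Of the 33 members at least 2-fold higher at day 3, 20 were so under all 12. The day 3 median log2 ratio of 1.43 was 1.06 with TMM factors, 1.08 with DESeq2 size factors and 1.13 with the median of all genes subtracted, and both sets of factors left 21 members at least 2-fold apart. The median of shAPC over time, −2.02, was −1.75 with TMM and −1.75 with DESeq2 factors, −1.71 with the median of all genes subtracted and −1.44 with a pseudocount of 5 CPM. As a mean over cells of CPM, which weights shallow cells like deep ones, 11 members were at least 2-fold apart at day 7 and 3 over time in shScr, against 4 and 0. The share of all genes at least 2-fold apart was not recounted under these alternatives. By construction the median share of cells moved with the depth of thinning. At 1000 UMIs it was 1.62%, 3.82% and 1.37% in shScr day 3, shAPC day 3 and shScr day 7. At 5000 UMIs it was 7.66%, 16.9%, 5.89% and 5.38% in the order of the libraries, and unthinned 33.1%, 59.5%, 11.8% and 15.0%. The median correlation in shScr day 7, 0.07, was 0.20 over members found in at least 50% of cells, which are fewer and more abundant. Depth limits BST2, RSAD2, CMPK2, HERC5, ISG20 and RTP4 outside shAPC day 3.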
